A study of Mus musculus with 2 samples.

Results

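Kinesins are motor proteins that walk along microtubules. Transport kinesins carry vesicles, mitochondria, messenger RNA and the cargo of cilia, mitotic kinesins build the spindle and close the cell at division, and a further group destabilises microtubule ends. In the brain they are best known for moving cargo along axons and, in glia, for carrying components out into long processes. The family was taken as every gene symbol in the deposited gene list that begins with Kif or Kifc followed by a number. This gave 44 of 32285 symbols, of which 42 are kinesin genes. The other 2 are Kif1bp, whose product binds kinesins, and Kif16bos, a transcript from the opposite strand beside Kif16b, which held 4 UMIs in the KO and 1 in the WT library. Of the kinesin genes, 17 were grouped as transport, 13 as mitotic, 6 as ciliary and 6 as other.

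Levels were read in dissociated cortical tissue of male mice aged 4 months. One library came from Fam69c knockout (KO) mice and the other from Fam69c wild-type (WT) mice. Cortices of 7 male mice were pooled by genotype, and whether 7 is the number for each genotype is not stated. Cells were stained with the dead-cell dye 7-AAD and sorted, and the 3' ends of their transcripts were counted with 10x Genomics droplets. Each genotype thus has 1 pooled library and no replicate, so no test was made, genotype and pool cannot be told apart, and every interval below is a 95% interval for counting error alone. The labels do not say how Fam69c was disrupted. Levels are given as CPM, UMI counts scaled to a common total within each class and library. The Fam69c transcript, listed as Dipk1c, stood at 33.7 CPM in KO and 60.2 CPM in WT astrocyte-like cells, and since reads come from the 3' end this checks neither label. In sums over a class, fewer cells that make a transcript and less RNA per cell cannot be told apart.

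The KO library held 9182 barcodes and 75473717 UMIs (unique molecular identifiers, each a captured transcript), and the WT library 7150 barcodes and 57166105 UMIs. After filtering, 7032 KO and 4940 WT cells remained, with median UMIs of 8438.5 and 8570, and the libraries shared 17 barcode sequences. Each cell was classed by its own markers. The classes large enough to compare between libraries held 4089 KO and 2031 WT astrocyte-like cells, 798 KO and 615 WT oligodendrocyte-like cells, 412 KO and 211 WT neuroblast-like cells, and 306 KO and 236 WT microglia-like cells. In each of these, 6 to 8 of the 10 leading genes were markers of the class. Another 11 smaller classes were described, and 524 KO and 990 WT cells stayed unassigned. A class of 92 KO and 41 WT cells that met the fibroblast gate was led by Mgp and Igfbp6 with no fibroblast marker among its 10 leading genes, and it is called by those genes.

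Transcripts of the 42 kinesin genes made up 0.158% of UMIs in KO and 0.204% in WT cells, from 98077 and 96963 UMIs. Over all cells 37 of the 44 symbols had at least 100 UMIs, and Kif2b alone had 0 UMIs in both libraries, where 3 UMIs would make 0.0484 CPM in KO and 0.0632 CPM in WT cells. A 3' tag counts a transcript once whatever its length. Levels are set side by side between classes for 1 gene or 1 summed list at a time, and genes are ranked within a class by their counts.

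The cycling cells held 6513 of 7658 mitotic kinesin UMIs in KO and 5208 of 6309 in WT. The stretches just before the start of some mitotic kinesins are shown for short motifs found in one or more of them. RefSeq promoters (GRCm38.p6) were found for 34 of the 44 symbols, and the start is that of RefSeq. In the GENCODE M21 annotation, exons cover all 30 bases printed below for Kif15 and for Kif22, and 0 of those for Kif11 and Kif18b. Mitotic genes are known for the CHR element TTTGAA, bound by complexes that silence these genes in resting cells, and for CCAAT boxes, bound by NF-Y. Capitals mark a CHR or a CCAAT box on either strand (TTCAAA and ATTGG are the same motifs read from the other strand). Kif11, the spindle motor that pushes the poles apart, is at chr19:37376262-37376381, plus strand. Kif15, which backs it up, is at chr9:122951051-122951080, plus strand, Kif22, a motor that sits on chromosomes, at chr7:127042421-127042450, minus strand, and Kif18b, which shortens astral microtubules, at chr11:102925125-102925244, minus strand.
Kif11: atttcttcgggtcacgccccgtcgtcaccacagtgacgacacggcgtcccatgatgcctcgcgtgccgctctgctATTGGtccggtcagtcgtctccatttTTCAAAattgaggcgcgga
Kif15: ggggcgccaaaTTCAAAtctgcggccatct
Kif22: ggggccccggtaaTTCAAAagagagaagcg
Kif18b: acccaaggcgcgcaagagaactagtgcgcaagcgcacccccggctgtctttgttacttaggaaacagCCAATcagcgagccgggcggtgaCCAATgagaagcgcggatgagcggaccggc

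The CHR began 19 bases before the start in Kif11, 19 in Kif15 and 17 in Kif22. Among the stretches printed above, Kif11 alone held both motifs, and Kif18b held CCAAT boxes but no CHR. In the 250 bases before the start, 5 of 12 mitotic kinesin promoters (41.7%) held TTTGAA on either strand, against 18.3% of 27025 mouse genes. CCAAT was in 8 of the 12 (66.7%), against 37.5% of genes. Of the ciliary kinesin genes 1 of 5 held TTTGAA and 3 of 5 CCAAT, and of the transport kinesins 1 of 11 and 3 of 11. A match describes the letters and does not show that a factor binds there.

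Kifc1 and Kifc5b, near copies of a minus-end-directed spindle motor, are shown side by side because their transcripts are alike in part. The Kifc1 stretch is chr17:33890662-33890753, minus strand, and that of Kifc5b is chr17:26916999-26917090, plus strand. Capitals mark CCAAT boxes on the other strand.
Kifc1: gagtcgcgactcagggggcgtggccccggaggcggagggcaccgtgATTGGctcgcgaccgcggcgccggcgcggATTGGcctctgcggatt
Kifc5b: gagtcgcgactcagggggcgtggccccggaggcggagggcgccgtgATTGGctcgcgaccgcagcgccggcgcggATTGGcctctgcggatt

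Over these 92 bases the copies differed at 2 positions, A41G and G63A, counted from the 5′ end with the base of Kifc1 first. These stretches lie before the start and are not counted. Of all runs of 31 bases in Kifc5b transcripts, 49.9% also occur in Kifc1 transcripts. In the last 300 bases of the longest transcript, nearest to where reads begin, 51.5% of the runs of Kifc1 occur in Kifc5b transcripts and 0% of those of Kifc5b in Kifc1 transcripts. Counts of this pair are reported as uncertain.

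Among the ciliary kinesins, Kif6 and Kif9, motors of moving cilia, held the X-box core GTTGCNA, bound by RFX factors, on the plus strand close to the start. It is marked in capitals at chr17:49615127-49615156, plus strand and at chr9:110476954-110476983, plus strand. GENCODE M21 exons cover 21 of the 30 bases printed for Kif6 and 26 of the 30 for Kif9. The Kif9 stretch is counted from its downstream RefSeq start, and the window of its upstream start held 0 matches. Of 5 ciliary kinesin genes with a promoter, 2 held GTTGCNA in the same window of 250 bases on either strand, as did 3 of 12 mitotic and 3 of 11 transport kinesins, against 10.1% of all genes.
Kif6: tctttggttactGTTGCTAgggcagcggtg
Kif9: ctgcaggcttcctGTTGCCAtggcgactgt

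Transport kinesins differed by class in much the same way in both libraries. The kinesin-3 motors Kif1a, Kif1b, Kif13a and Kif13b, which carry vesicles and mitochondria, were highest in oligodendrocyte-like cells. Kif1b, needed in zebrafish to bring myelin messenger RNA into oligodendrocyte processes, stood at 1854 CPM in KO and 2485 CPM in WT oligodendrocyte-like cells. The next class, astrocyte-like cells, held 486 CPM in KO and 698 CPM in WT. Microglia-like cells held 91.6 CPM of Kif1b in KO and 91.6 CPM in WT. The intervals of the oligodendrocyte-like and astrocyte-like levels did not overlap within a library for Kif1b.

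Kif1a, the carrier of synaptic vesicle precursors in neurons, was also highest in oligodendrocyte-like cells, with 241 CPM in KO and 297 CPM in WT. It was followed by astrocyte-like cells with 127 CPM in KO and 158 CPM in WT. Kif13b, a kinesin-3 motor known to act in myelination, stood at 189 CPM in KO and 306 CPM in WT oligodendrocyte-like cells. Kif13a, a carrier of recycling endosomes, stood at 91.3 CPM in KO and 132 CPM in WT oligodendrocyte-like cells. Kif21a, a kinesin-4 motor that slows microtubule growth, had 327 CPM in KO and 396 CPM in WT oligodendrocyte-like cells, and ependymal-like cells came next with 219 CPM in KO and 270 CPM in WT. For Kif1a, Kif13a, Kif13b and Kif21a, the oligodendrocyte-like level lay above the interval of the next class in both libraries.

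The 3 heavy chains of conventional kinesin separated by class. Kif5b, the ubiquitous one, was highest in endothelial-like cells, at 502 CPM in KO and 555 CPM in WT, and in second place in neuroblast-like cells, at 349.8 CPM in KO and 362 CPM in WT. Kif5a and Kif5c, the neuronal heavy chains, were highest in neuroblast-like cells, which are marked by Dcx and Dlx genes. This class mixes cycling cells, 111 of 412 in KO and 63 of 211 in WT, with others. Kif5a stood at 93.3 CPM in KO and 134 CPM in WT neuroblast-like cells, with oligodendrocyte-like cells next at 19.8 CPM in KO and 27.6 CPM in WT. Kif5c stood at 145 CPM in KO and 170 CPM in WT neuroblast-like cells, against 20.2 CPM in KO and 24.5 CPM in WT oligodendrocyte-like cells. Kif2a, a kinesin-13 that takes microtubule ends apart and trims axon branches, was likewise highest in neuroblast-like cells, with 159 CPM in KO and 179.6 CPM in WT. The intervals of ependymal-like cells in WT (128 CPM) and of NK cell-like cells in KO (98.8 CPM, 12 UMIs) overlapped those of the neuroblast-like level of Kif2a.

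Kif21b, a kinesin-4 motor known from T cells, where it limits microtubule growth during synapse formation, was high in immune cells but not in them alone. Among the classes, microglia-like cells had the highest level, 123 CPM in KO and 185 CPM in WT. T cell-like cells had 89.3 CPM in KO and 115 CPM in WT, and B cell-like cells 78.5 CPM in KO and 91.7 CPM in WT. NK cell-like cells, 24 in KO and 18 in WT, had 74.1 CPM in KO and 123 CPM in WT. The interval of microglia-like cells overlapped those of T cell-like, B cell-like and NK cell-like cells in KO and that of NK cell-like cells in WT, so their order is within counting error. When all cells were grouped on their profiles, the neuroblast-like cluster led by Meg3 had 80.5 CPM in KO and 128 CPM in WT. The cluster led by Ndnf had 187 CPM in KO (34 UMIs) and 98.2 CPM in WT (12 UMIs). The other neuroblast-like clusters had 16.2 to 23.5 CPM in KO and 17.9 to 24.4 CPM in WT.

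Endothelial-like cells were set apart by Kif26a and Kif1c. Kif26a, a member that binds microtubules without working as a motor, had 128 CPM in KO and 163 CPM in WT endothelial-like cells. None of the other 14 classes passed 30.2 CPM of Kif26a in either library, and neuroblast-like cells held that level in WT. Within that class Kif26a lay mostly in non-cycling cells, with 45.6 CPM in KO and 76.8 CPM in WT. Kif1c, which moves vesicles in many tissues, had 83.5 CPM in KO and 122 CPM in WT endothelial-like cells. In the KO library the 5 Kif1c UMIs of NK cell-like cells left their interval overlapping the endothelial-like one.

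Astrocyte-like cells were highest for Kifc2, a minus-end motor of the brain, with 17.7 CPM in KO and 17.3 CPM in WT. They were also highest in KO for Kifc3, a minus-end motor that works at adherens junctions and in apical transport. Kifc3 was at 112 CPM in KO and 50.9 CPM in WT astrocyte-like cells. Endothelial-like cells had 68.0 CPM in KO and 58.5 CPM in WT, and ependymal-like cells 46.6 CPM in KO and 57.4 CPM in WT. In the WT library the intervals of these 3 classes overlapped.

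**Figure D1:**
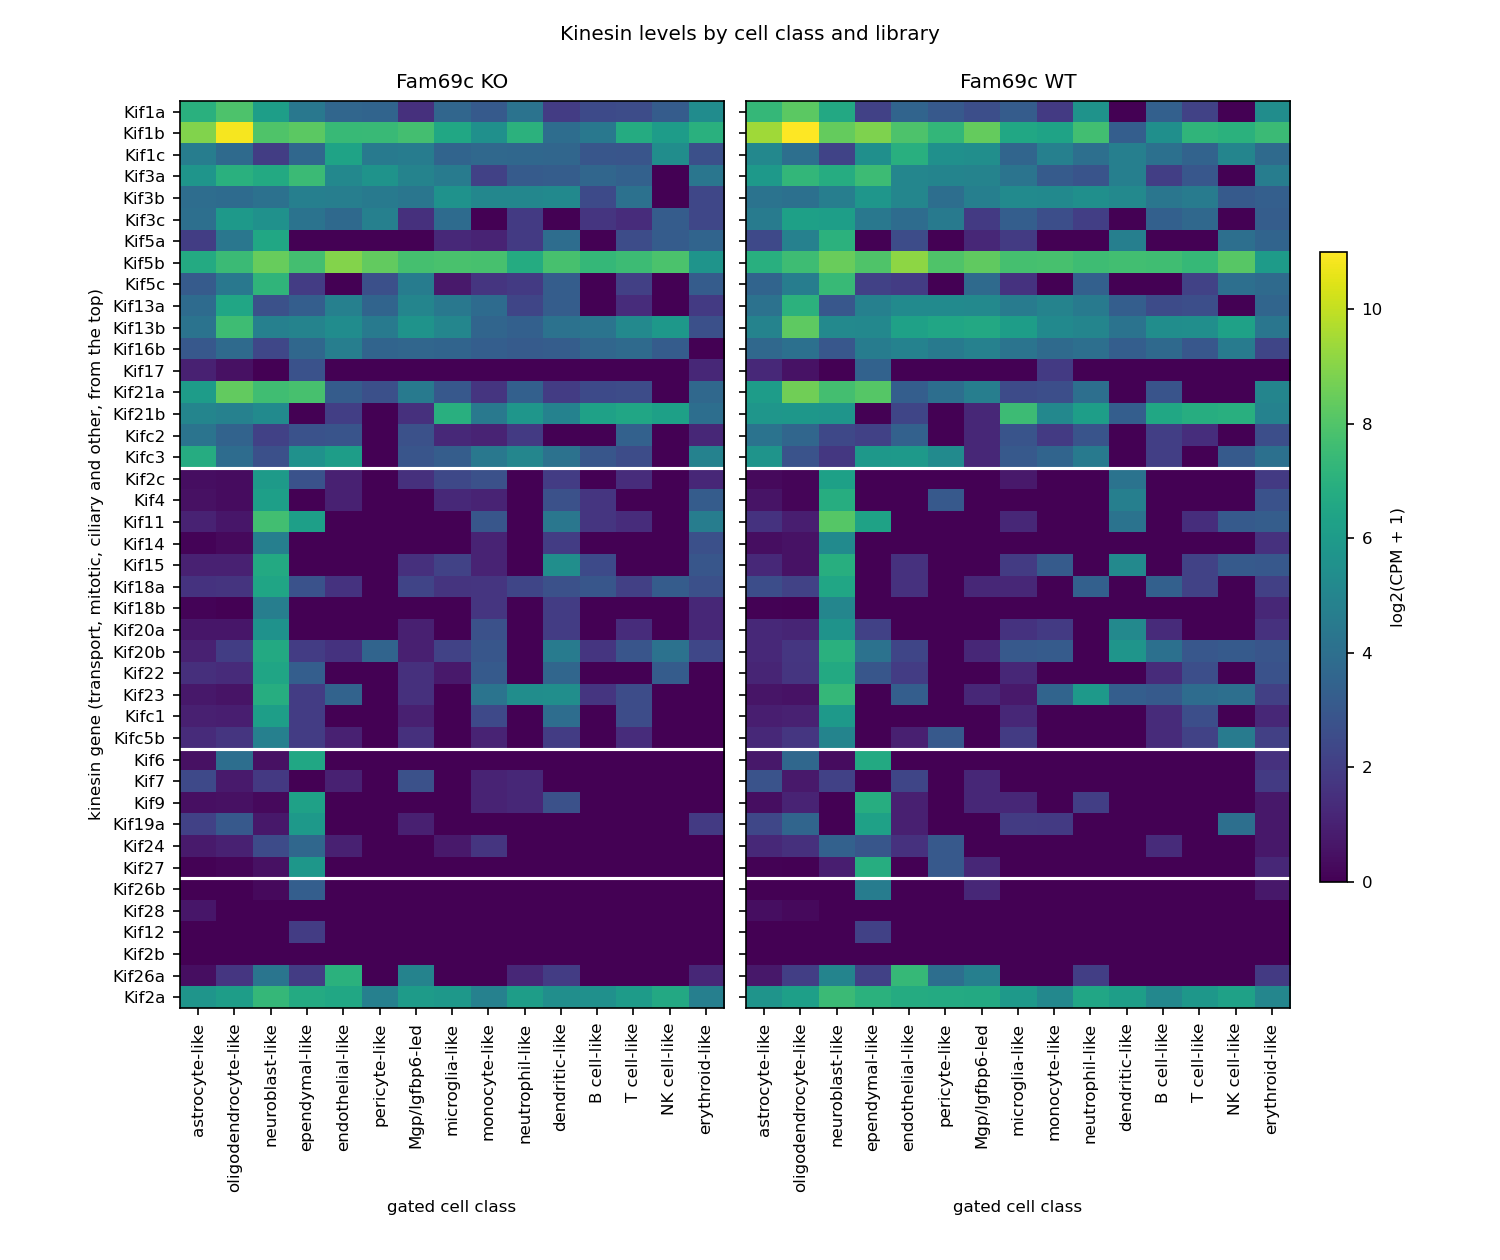
Level of each of the 42 kinesin genes (rows, grouped from the top as transport, mitotic, ciliary and other) in 15 gated cell classes (columns), as log2(CPM + 1), in the KO library on the left and the WT library on the right. The mitotic block is bright in neuroblast-like cells and most of the ciliary block in ependymal-like cells, and Kif1b in oligodendrocyte-like cells is the brightest field of both maps (1854 and 2485 CPM).

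Ependymal-like cells, which line the ventricles and carry moving cilia, had the highest level of 4 of the 6 ciliary kinesins in both libraries. There were 27 such cells in KO and 18 in WT. Kif6 stood at 93.2 CPM in KO and 101 CPM in WT ependymal-like cells. Kif9 stood at 78.7 CPM in KO and 115 CPM in WT. Kif27 stood at 55.4 CPM in KO and 115 CPM in WT, from 19 and 34 UMIs. Kif19a, which keeps cilia short by taking their microtubules apart, stood at 61.2 CPM in KO and 77.7 CPM in WT. In WT the interval of NK cell-like cells (15.4 CPM) overlapped that of the ependymal-like level of Kif19a. Among the other classes Kif6 was highest in oligodendrocyte-like cells, at 14.7 CPM in KO and 11.9 CPM in WT, while microglia-like cells had 0 Kif6 UMIs in either library, where 3 UMIs would make 2.11 CPM in KO and 2.05 CPM in WT.

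Kif24, which acts on centriolar microtubules and restrains cilia, had 4 UMIs in KO (11.7 CPM) and 2 in WT (6.75 CPM) ependymal-like cells. In neuroblast-like cells Kif24 had 4.71 CPM in KO and 9.76 CPM in WT, the highest level of the WT library, and the intervals of both classes overlapped.

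Kif7, which works at the tip of the primary cilium in Hedgehog signalling, differed from these ciliary members. It had 0 UMIs in ependymal-like cells of either library, where 3 UMIs would make 8.74 CPM in KO and 10.1 CPM in WT, and it stood at 4.33 CPM in KO and 6.08 CPM in WT astrocyte-like cells. Kif3a, the kinesin-2 motor that carries cargo into cilia, was highest in ependymal-like cells, with 181 CPM in KO and 186 CPM in WT. In WT its interval overlapped that of oligodendrocyte-like cells, at 154 CPM. The members with few UMIs over all cells were Kif17 (44 in KO and 45 in WT), Kif27 (27 and 46), Kif28 (21 and 10), Kif26b (8 and 14) and Kif12 (1 and 1), and both Kif12 UMIs and 3 KO and 7 WT UMIs of Kif26b lay in ependymal-like cells.

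The mitotic kinesins were low outside dividing cells. Cells were called cycling from 16 cell cycle markers that include no kinesin, which gave 151 cycling cells in KO and 86 in WT. Of these, 111 in KO and 63 in WT met the neuroblast gate. The cycling cells held more UMIs than the others, with medians of 21500 in KO and 26628 in WT, against 6726 in KO and 9242.5 in WT for non-cycling neuroblast-like cells. Cells were called cycling at a score of 0.4 and non-cycling below 0.1, which gave 251 KO and 126 WT non-cycling neuroblast-like cells. Those that scored in between joined neither group. Within the neuroblast gate, summed mitotic kinesins stood at 1965 CPM in KO cycling cells and 37.5 CPM in KO non-cycling cells, a ratio of 52.4 (40.7 to 68.8). In WT the sums were 2509 CPM in cycling and 38.8 CPM in non-cycling cells, a ratio of 64.6 (48.2 to 88.7). A cycling cell held UMIs of a median of 11 of the 13 mitotic kinesins in KO and 12 in WT, while no non-cycling neuroblast-like cell held more than 2 in either library. Over the whole neuroblast gate, 130 KO and 79 WT cells held 3 or more, and 110 and 61 of these were cycling. The rest of them scored between the cut-offs, so the ratios compare the ends of the score and leave out its middle.

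Kif11 was the most counted mitotic kinesin, with 365 CPM in KO and 477 CPM in WT cycling cells. In non-cycling neuroblast-like cells it had 2 UMIs in KO and 3 in WT. Kif23, the motor of the centralspindlin complex that forms the midbody, stood at 219 CPM in KO and 288 CPM in WT cycling cells. Kif20b, needed for abscission, stood at 183 CPM in KO and 238 CPM in WT cycling cells. The cycling levels of all 13 exceeded the upper bounds of their non-cycling intervals in both libraries. In non-cycling neuroblast-like cells the members with most UMIs were Kif18a, a motor that aligns chromosomes, with 13.1 CPM in KO and 6.90 CPM in WT, and Kif20b, with 8.12 CPM in KO and 11.2 CPM in WT.

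**Figure D2:**
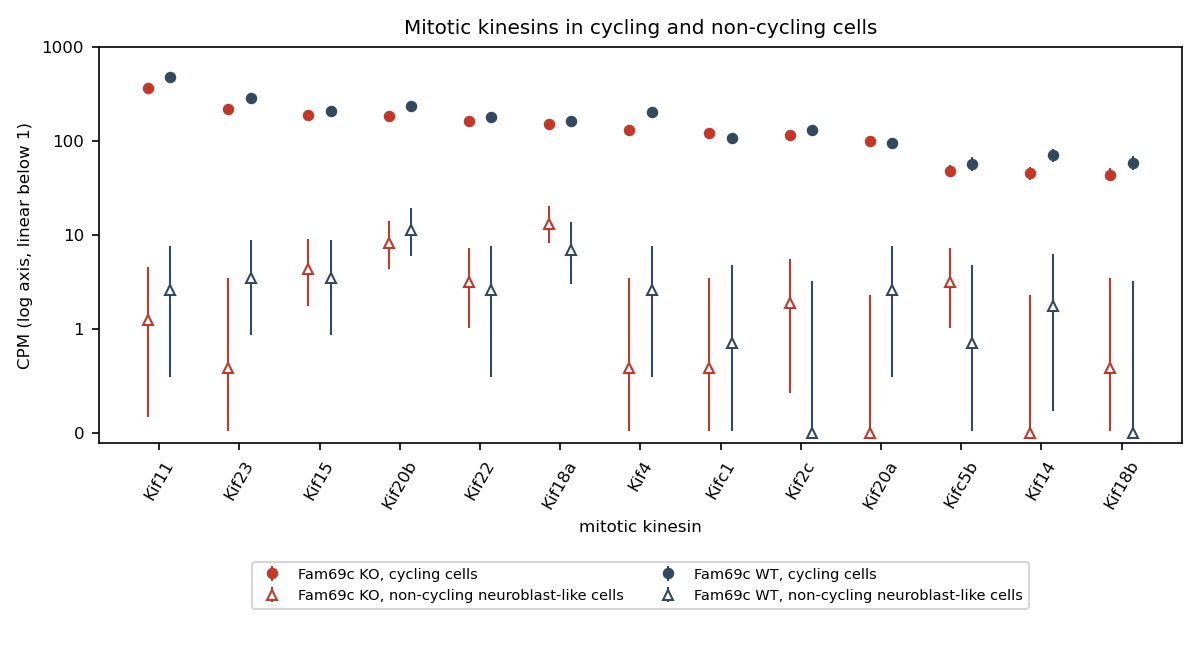
Level of each mitotic kinesin (x axis) in CPM (log axis, linear below 1) in cycling cells (filled circles) and non-cycling neuroblast-like cells (open triangles), KO in red left of WT in dark blue, with exact 95% Poisson intervals. Filled circles lie between 43.7 and 365 CPM in KO and between 57.2 and 477 CPM in WT, above the triangles of both libraries.

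Ependymal-like and neutrophil-like cells each held 1 mitotic kinesin with few UMIs of the others. Ependymal-like cells, of which none was called cycling, had 25 Kif11 UMIs in KO (72.8 CPM) and 24 in WT (81.0 CPM). The other 12 mitotic kinesins together had 11 UMIs in KO and 8 in WT ependymal-like cells. Kif11 UMIs were found in 10 of 27 ependymal-like cells in KO (37.0%) and 11 of 18 in WT (61.1%), against 0.752% of KO and 1.30% of WT oligodendrocyte-like cells. With every cell thinned to 2000 UMIs these shares were 15.4% in KO and 21.4% in WT ependymal-like cells (26 and 14 cells, intervals 4.36 to 34.9% and 4.66 to 50.8%) and 0% in oligodendrocyte-like cells of either library (760 and 575 cells), where 0 leaves an upper bound of 0.484% in KO and 0.639% in WT.

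Kif23 had 31 UMIs in KO (41.1 CPM) and 19 in WT (58.6 CPM) in neutrophil-like cells, and the other 12 mitotic kinesins together 3 UMIs in KO and 3 in WT. A Kif23 UMI was found in 25 of 109 neutrophil-like cells in KO and 10 of 40 in WT, against 3 of 798 oligodendrocyte-like cells in KO and 4 of 615 in WT. Thinned to 2000 UMIs the neutrophil-like shares were 8.41% in KO and 12.8% in WT, from 107 and 39 cells.

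Between the libraries most kinesins stood lower in KO, and Kifc3 in astrocyte-like and oligodendrocyte-like cells stood higher. Differences were counted for genes with at least 100 UMIs in a class and called where the levels differed at least 1.5-fold. In astrocyte-like cells 21 of the 44 symbols had that many UMIs, 17 of them lower in KO (81.0%), as were 59.0% of all genes. Their median log2 KO/WT was -0.32, against -0.09 over all 12230 genes of the class with 100 UMIs. Under TMM scaling the medians were -0.19 and 0.04, with 16 members lower. Of the 21, 1 was higher and 4 were lower at least 1.5-fold, and over all genes 9.76% were past that fold, 2.49% higher and 7.27% lower.

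Kifc3 was the member higher in KO astrocyte-like cells, with 3963 UMIs (112 CPM) in KO and 1216 UMIs (50.9 CPM) in WT, a log2 ratio of 1.14 (1.04 to 1.23). A Kifc3 UMI was found in 56.5% of KO and 38.5% of WT astrocyte-like cells, although the median depth was lower in KO, at 8918 UMIs in KO against 12222 in WT. Thinned to 2000 UMIs the shares were 20.5% (19.2 to 21.8%) in KO and 9.97% (8.67 to 11.4%) in WT. In microglia-like cells, which held 8.46 CPM in KO and 7.52 CPM in WT at median depths of 5107.5 and 6943.5 UMIs, 1.38% of thinned cells in KO and 0.524% in WT had a Kifc3 UMI.

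Kifc3 was higher in KO in each of the 5 clusters that grouping all cells on their profiles gave for astrocyte-like cells. The clusters are called below by the genes that set each apart from the other 4. Against all other cells, the 10 leading genes held 2 astrocyte markers in the clusters of Crym and of Fez1, 1 in the hemoglobin cluster and 0 in those of Kcnq1ot1 and of Syne1, and no marker of another class in any of them. In the cluster led by Crym and Mt1 it stood at 97.5 CPM in KO and 42.0 CPM in WT, and this cluster held 38.8% of the cells of these 5 clusters in KO and 3.44% in WT. In the cluster led by Kcnq1ot1, with 13.5% of KO and 44.1% of WT cells, Kifc3 stood at 135 CPM in KO and 48.5 CPM in WT. In the cluster led by Fez1, with 22.9% of KO and 18.8% of WT cells, it stood at 110 CPM in KO and 54.3 CPM in WT. In the cluster led by Syne1 and Huwe1, with a median mitochondrial share of 11.1%, it stood at 214 CPM in KO and 73.1 CPM in WT. In the cluster led by hemoglobin genes, whose cells had a median of 1864 UMIs in KO and 1314.5 in WT, it stood at 78.8 CPM in KO and 39.5 CPM in WT. A cluster mostly of 1 library may be that library and not a kind of cell.

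**Figure D3:**
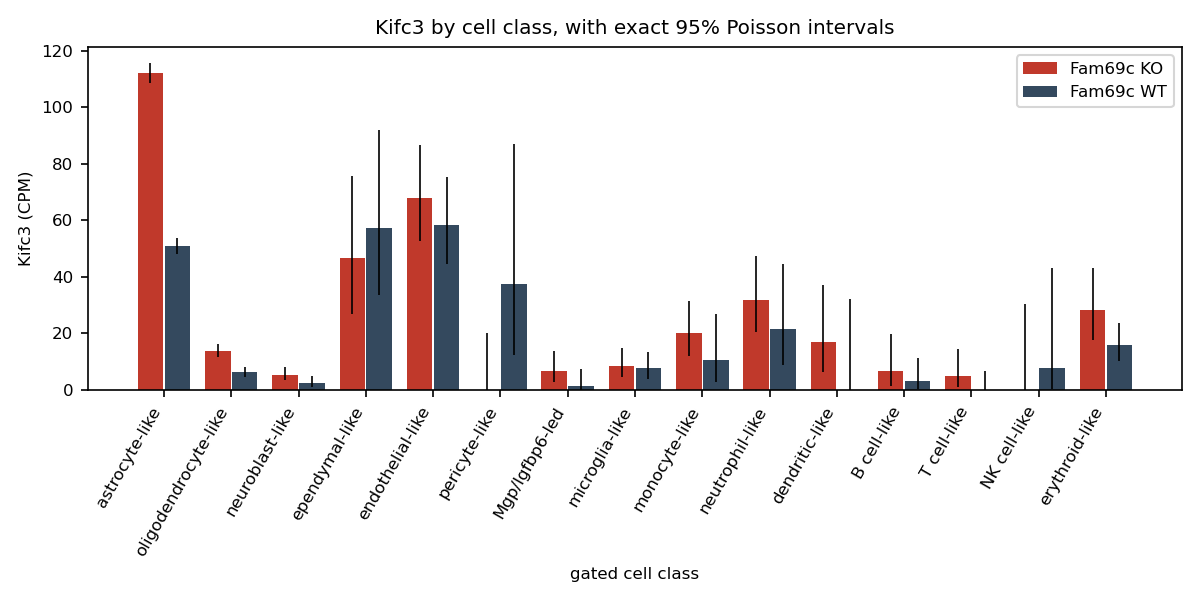
Kifc3 level in CPM (y axis, from 0) in 15 gated cell classes, KO (red) left of WT (dark blue), with exact 95% Poisson intervals. The KO and WT intervals are apart in astrocyte-like cells (112 and 50.9 CPM) and oligodendrocyte-like cells (13.6 and 6.11 CPM), and overlap in the ependymal-like and endothelial-like classes.

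The members lower at least 1.5-fold in KO astrocyte-like cells were Kif18a, Kif21b, Kif16b and Kif13b. Kif18a had 72 UMIs (2.04 CPM) in KO and 120 UMIs (5.03 CPM) in WT, a log2 ratio of -1.30 (-1.75 to -0.87). Kif21b had 31.2 CPM in KO and 54.1 CPM in WT, a log2 ratio of -0.79 (-0.91 to -0.68). Kif16b, which moves early endosomes, had 7.10 CPM in KO and 12.2 CPM in WT, a log2 ratio of -0.78, which was -0.13 after thinning to 2000 UMIs per cell. Kif13b had 17.4 CPM in KO and 29.1 CPM in WT, a log2 ratio of -0.74.

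The members with the highest astrocyte-like levels beside Kifc3 were Kif1b, Kif1a, Kif5b and Kif1bp. Kif5b was at 105 CPM in KO and 121 CPM in WT, and Kif1bp at 77.0 CPM in KO and 76.5 CPM in WT. The 16 members within 1.5-fold ranged in log2 ratio from -0.58 to 0.04. Over all 21 members, the interval of the ratio lay below 0 for 15, above 0 for 1 and held 0 for 5, while over all 12230 genes 40.6% of intervals lay below 0 and 25.6% above it.

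Kinesin transcripts are long, and over all genes the KO/WT ratio was lower for longer transcripts. Its part in the members' values was not tested beyond removing this trend. The median of the longest annotated transcript (GENCODE M21) was 6404 bases for the 21 members and 3376 bases for all genes of the class. Over all genes in astrocyte-like cells, the rank correlation of the log2 ratio with that length was -0.59, as a description of 1 pair of libraries. The median log2 ratio was 0.37 in the shortest and -0.45 in the longest of 20 length bins. After the median of each bin was subtracted, the members' median was -0.07, with Kifc3 (1.28) and Kif18a (-0.95) still past 1.5-fold and 6.31% of all genes past it. The longest Kifc3 transcript has 3384 bases, near the middle of all genes.

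**Figure D4:**
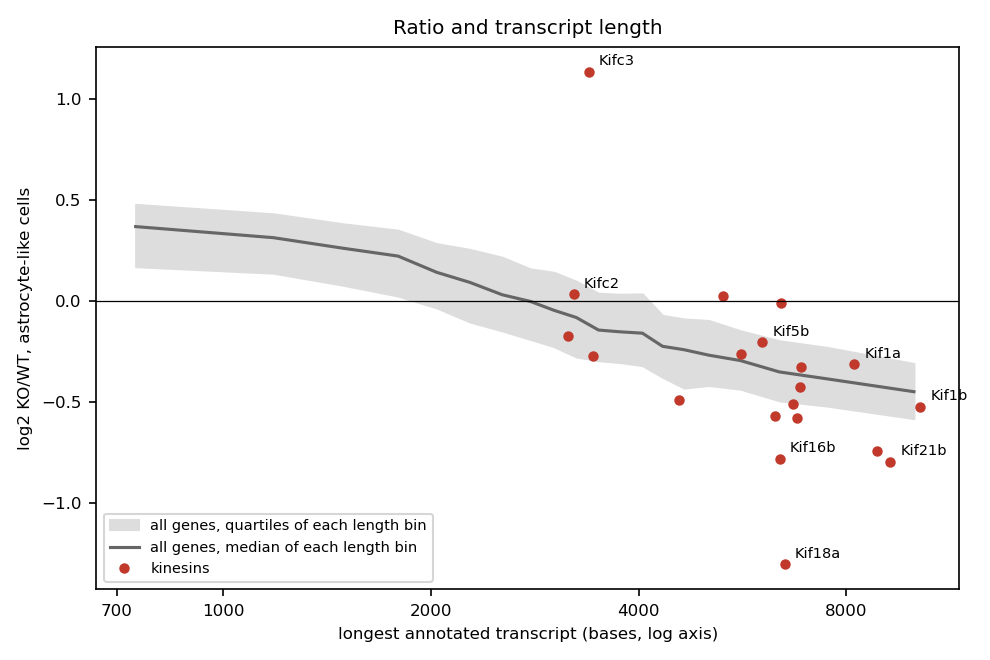
Log2 KO/WT in astrocyte-like cells (y axis) against the longest annotated transcript in bases (x axis, log scale), for kinesins with at least 100 UMIs (red points, without Kif1bp) and, over all genes, the median (line) and quartiles (grey band) of 20 length bins. Kifc3 (1.14) lies far above the band and Kif18a (-1.30) far below it, and most other kinesins follow its slope.

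In oligodendrocyte-like cells 20 members had at least 100 UMIs, 17 of them lower in KO (85%, against 58.5% of all genes), with a median log2 ratio of -0.28 against -0.06 over 9353 genes. Of these, 1 was higher and 3 were lower at least 1.5-fold, and over all genes 6.52% were past that fold, 2.29% higher and 4.23% lower. Kifc3 was again the higher member, with 134 UMIs (13.6 CPM) in KO and 55 UMIs (6.11 CPM) in WT, a log2 ratio of 1.15 (0.69 to 1.63). Thinned to 2000 UMIs per cell it was 0.50, within 1.5-fold. All 11 astrocyte markers were also higher in KO oligodendrocyte-like cells, together 0.0670% of UMIs in KO and 0.0437% in WT, and their part in the Kifc3 difference was not tested. In the cluster of oligodendrocyte-like cells led by S100b and Klk6, Kifc3 had 60 UMIs in KO and 6 in WT (21.1 and 2.95 CPM). In the larger cluster led by Ptgds it had 53 UMIs in KO and 34 in WT (8.17 and 5.43 CPM). The log2 ratio there was 0.59, with an interval that held 0 (-0.06 to 1.25).

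The lower members in KO oligodendrocyte-like cells were Kif21b, Kif13b and Kif19a. Kif21b had 27.8 CPM in KO and 55.9 CPM in WT, a log2 ratio of -1.01 (-1.23 to -0.79), which was -0.48 after thinning. Kif13b had 189 CPM in KO and 306 CPM in WT, a log2 ratio of -0.70 (-0.78 to -0.61). Kif19a had 72 UMIs (7.31 CPM) in KO and 100 UMIs (11.1 CPM) in WT, a log2 ratio of -0.61 (-1.06 to -0.15), which was 0.23 with each cell weighed the same. With the length trend removed the median of the 20 was -0.03, and Kifc3 (1.24) and Kif21b (-0.69) stayed past 1.5-fold, as did 4.69% of all genes. The most counted members, Kif1b, Kif21a, Kif1a, Kif13b and Kif5b, were each lower in KO, and only Kif5b had an interval that held 0 (182 CPM in KO and 188 CPM in WT).

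In neuroblast-like cells 27 members had at least 100 UMIs, 25 of them lower in KO (92.6%, against 59.9% of all genes), with a median log2 ratio of -0.32 against -0.09 over 7999 genes. None was higher and 4 were lower at least 1.5-fold, and over all genes 8.19% were past that fold, 0.925% higher and 7.26% lower. Kif26a had 86 UMIs (18.4 CPM) in KO and 99 UMIs (30.2 CPM) in WT, a log2 ratio of -0.71 (-1.15 to -0.28), which was 0.13 after thinning. Kif4, a motor that binds chromosome arms, had 74.1 CPM in KO and 116 CPM in WT, a log2 ratio of -0.65 (-0.86 to -0.44). Kif3c, a neuronal kinesin-2, had 46.7 CPM in KO and 71.1 CPM in WT, a log2 ratio of -0.61. Kif3b, its relative in cilia and axons, had 16.3 CPM in KO and 24.7 CPM in WT, a log2 ratio of -0.60. With the length trend removed 0 of the 27 members were past 1.5-fold, against 3.85% of all genes, and their median was -0.09. Under TMM scaling Kif26a alone stayed past 1.5-fold, and Kif4 stood at -0.52, Kif3c at -0.48 and Kif3b at -0.48.

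In microglia-like cells 7 members had at least 100 UMIs, 5 of them lower in KO (71.4%, against 51.0% of all genes). Their median log2 ratio was -0.04, against -0.01 over 4857 genes. It was above 0 with Leiden clusters (0.00636), with each cell weighed the same (0.0871) and with the length trend removed (0.13), so it has no settled direction. Of the 7, 2 were lower at least 1.5-fold, against 10.4% of all genes past it, 4.96% higher and 5.41% lower. With the length trend removed 1 stayed past it, Kif13b (-0.83), against 6.81% of all genes. Kif13b had 45 UMIs (31.7 CPM) in KO and 100 UMIs (68.4 CPM) in WT, a log2 ratio of -1.11 (-1.65 to -0.59). Kif21b had 123 CPM in KO and 185 CPM in WT, a log2 ratio of -0.59 (-0.87 to -0.31), which under TMM scaling was -0.57, within 1.5-fold. Kif5b, the member with the highest microglia-like level, had 228 CPM in KO and 214 CPM in WT. All 11 astrocyte markers were higher in KO microglia-like cells too, together 0.120% of UMIs in KO and 0.0642% in WT, and their part in these values was not tested.

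**Figure D5:**
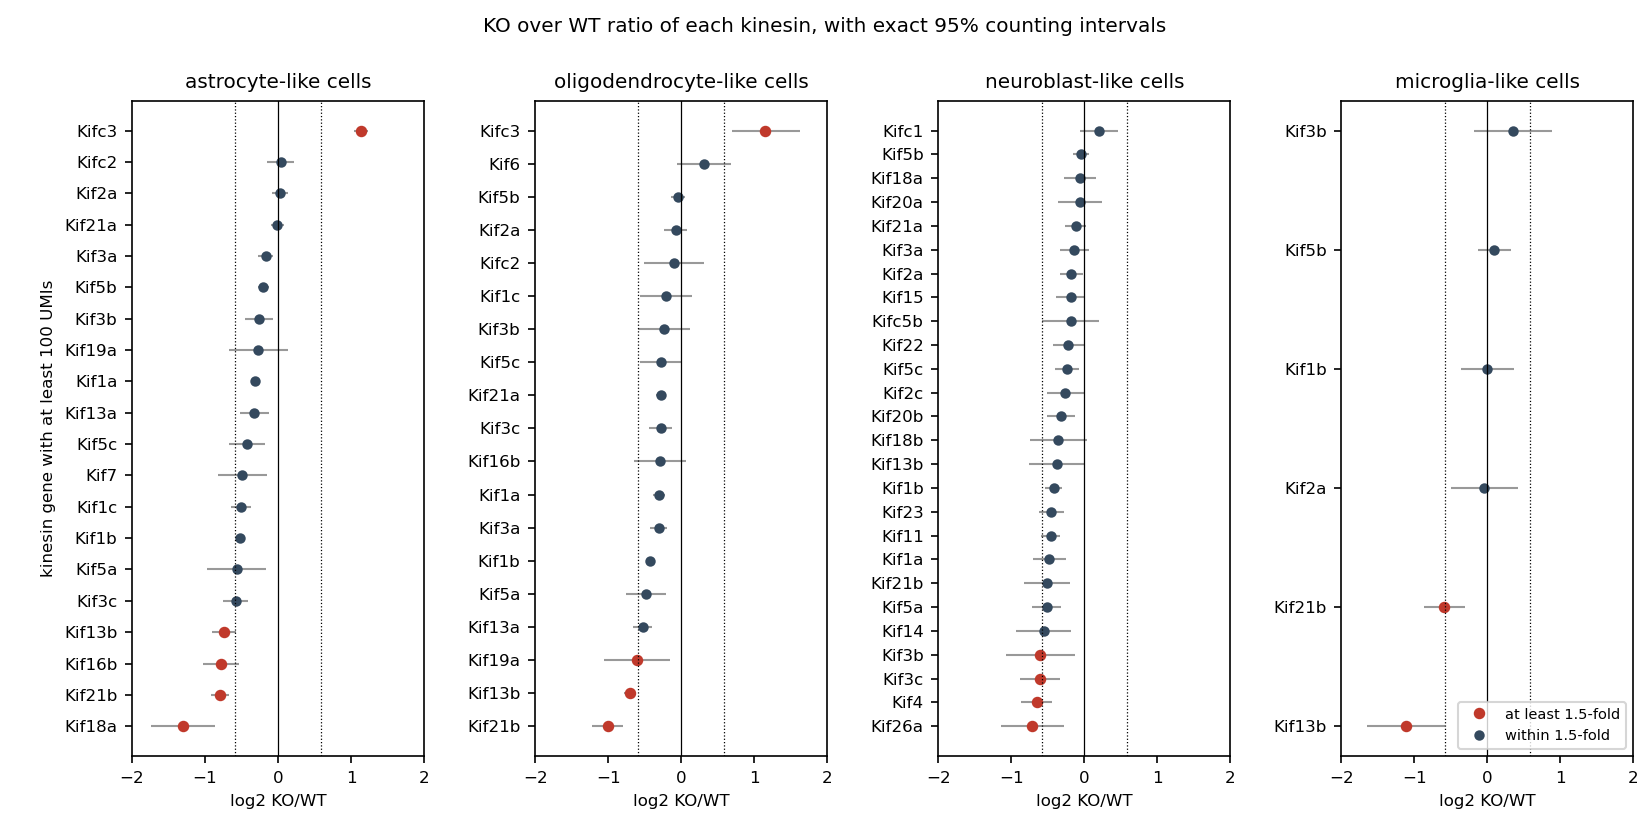
Log2 KO/WT (x axis) of each kinesin with at least 100 UMIs in astrocyte-like, oligodendrocyte-like, neuroblast-like and microglia-like cells, with exact 95% counting intervals and without Kif1bp. Red points are past 1.5-fold (dotted lines), and Kifc3 in astrocyte-like (1.14) and oligodendrocyte-like cells (1.15) is the red point to the right of 0.

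Kif13b and Kif21b were each lower in KO in all 4 compared classes. The log2 ratio of Kif13b was -0.74 in astrocyte-like, -0.70 in oligodendrocyte-like, -0.38 in neuroblast-like and -1.11 in microglia-like cells. That of Kif21b was -0.79, -1.01, -0.51 and -0.59 in the same order. Of all genes, 59.0%, 58.5%, 59.9% and 51.0% were lower in KO in these classes, and the share lower in all 4 was not counted. Their longest transcripts have 8865 and 9254 bases. With the length trend removed Kif13b was at -0.29, -0.38, -0.03 and -0.83, and Kif21b at -0.35, -0.69, -0.09 and -0.29. All were below 0, though the neuroblast-like values lay close to it. Over the clusters of astrocyte-like cells Kif21b ranged from -0.69 to -0.02 and Kif13b from -0.73 to 0.25. In the neuroblast-like cluster led by Ndnf, Kif21b was at 0.93 (34 KO and 12 WT UMIs) and Kif13b at 0.54 (13 KO and 6 WT UMIs). Both of these intervals held 0. The other neuroblast-like clusters were below 0 for both genes, but most of their intervals held 0 too. Those below 0 were of Kif21b in the cluster led by Meg3 (-1.08 to -0.25) and Kif13b in that led by Clu (-1.55 to -0.32). The part of cluster shares in the class values was not tested.

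In cycling cells summed mitotic kinesins stood at 1874 CPM (1829 to 1920) in KO and 2275 CPM (2214 to 2338) in WT, a log2 ratio of -0.28 (-0.33 to -0.23), which was -0.10 under TMM scaling. Markers of other classes also differed in these cells. Astrocyte markers made up 0.0747% of UMIs in KO and 0.144% in WT, with 0 of 11 higher in KO. Dendritic cell markers made up 0.0458% in KO and 0.000699% in WT, with 8 of 8 higher in KO, and monocyte markers 0.0244% in KO and 8.74e-05% in WT, with 6 of 6 higher. In the cycling cells within the neuroblast gate the log2 ratio of the sum was -0.35 (-0.41 to -0.29). Of the 13, 11 were lower in all cycling cells (59.2% of all genes were) and 2, Kifc1 and Kif20a, were higher in KO. Kif14, a motor of cytokinesis, had 45.5 CPM in KO and 70.3 CPM in WT, and Kif4 had 131 CPM in KO and 201 CPM in WT. Both were lower at least 1.5-fold, as were the transport members Kif5a (38.3 CPM in KO and 71.6 CPM in WT) and Kif1a (47.8 CPM in KO and 76.9 CPM in WT). Over all genes of the cycling cells 13.4% were past that fold, 2.06% higher and 11.3% lower. In the same cells the summed markers of DNA synthesis were higher in KO, with 2083 CPM in KO and 1774 CPM in WT. Those of mitosis were too, with 2799 CPM in KO and 2347 CPM in WT. Markers of both sets are among the 16 that called these cells cycling. All 16 together made up 1.119% of UMIs in KO and 1.117% in WT cycling cells, with 11 of 16 higher in KO. In cycling cells within the neuroblast gate they made up 1.18% in KO and 1.23% in WT. With the length trend removed 0 of the 25 members counted in cycling cells were past 1.5-fold, against 7.29% of all genes, and the median of the 13 mitotic kinesins was -0.10.

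The partners of the transport kinesins were mostly within 1.5-fold, as were most of all genes. The list of 23 holds, among others, kinesin light chains, mitochondrial adaptors, dynein and dynactin subunits, and Kif1bp. In astrocyte-like cells 21 had at least 100 UMIs, 0 were past 1.5-fold, against 9.76% of all genes, and the median log2 ratio was -0.11. Dctn3, a dynactin subunit, was nearest that fold, with 109 CPM in KO and 73.5 CPM in WT. In oligodendrocyte-like cells the median of 19 was -0.21 and in neuroblast-like cells that of 21 was -0.06, with 0 past 1.5-fold in either, against 6.52% and 8.19% of all genes. In microglia-like cells the median of 13 was -0.28, and 1 was past 1.5-fold, against 10.4% of all genes. It was Rhot1, which ties mitochondria to their motors, with 45.1 CPM in KO and 75.2 CPM in WT.

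Of 14 partners of the mitotic kinesins, all had at least 100 UMIs in cycling cells and 0 were past 1.5-fold, against 13.4% of all genes. Their summed levels were 3944 CPM in KO and 4262 CPM in WT. The 14 include Cenpe, itself a mitotic kinesin, whose symbol does not begin with Kif and which the family count leaves out. Over the whole neuroblast-like class, 1 of the 14 was past it (8.19% of all genes), Anln, a scaffold of the cleavage furrow, with 52.2 CPM in KO and 80.5 CPM in WT. In astrocyte-like cells 4 had at least 100 UMIs and 1 was past it (9.76% of all genes), Prc1, which bundles spindle microtubules, with 83 UMIs (2.35 CPM) in KO and 94 UMIs (3.94 CPM) in WT. Anln stood higher in oligodendrocyte-like cells, at 635 CPM in KO and 736 CPM in WT, where 1 KO and 0 WT cells were called cycling.

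Over the 15 classes and both libraries, 30 points that share libraries and depth, genes among those most like the summed mitotic kinesins by Pearson correlation of log2(CPM + 1) were Bub1 (0.86), Knl1 (0.83), Tpx2 (0.83) and Sgo1 (0.82). Tpx2 is one of the cell cycle markers of the gate, and Bub1 and Knl1 are among the mitotic partners above. The genes most like Kifc3 were Csgalnact1 (0.77), Rfx4 (0.75), Gdpd2 (0.73), Phkg1 (0.71) and Synpo2 (0.69).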

How the data were processed

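The authors deposited, for each library, a 10x matrix of raw UMI counts with its barcodes and gene symbols. Per the submitters' processing notes Cell Ranger 4.0.0, Seurat 3.0, R 4.0.3 and mm10 were used, with no annotation release named.

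Barcodes with under 500 genes or over 20% mitochondrial UMIs were dropped, 18.5% of KO and 27.9% of WT barcodes. By its own threshold Scrublet (scanpy 1.11.5) marked 4 KO and 0 WT cells, too few to rely on, and the highest scores were removed at 0.8% per 1000 cells, 448 in KO and 212 in WT. A cell joined a class when its mean marker level, scaled per marker, was at least 0.35 and led every other class by 0.15. It was called cycling at a score of 0.4 and non-cycling below 0.1. These cut-offs were chosen with the data in view.

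CPM came from UMI sums of a class and library, with exact Poisson intervals. Ratios carry exact conditional binomial and shares exact Clopper-Pearson intervals, all at 95%. Beside a sum of 0 the level that 3 UMIs would give is printed. Lengths came from GENCODE M21, matched for 99.8% of genes. A class was compared between libraries when each gave it 200 cells or more, and described when 1 library gave it 20.

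Kinesins with at least 100 UMIs in a class could be named, with values for those past 1.5-fold and the 5 highest. Other genes were named only from the partner lists, the markers and the 5 most like a pattern, of which 1 is not reported here. The members and lists were chosen with earlier results of these data known. The clusters, the accounts of Kif11 in ependymal-like and Kif23 in neutrophil-like cells and the printed promoters were picked after values were seen. Calculations were tested on simulated counts. Tools were matplotlib 3.10.9, leidenalg 0.10.2, scikit-learn 1.9.0, pandas 2.3.3, scipy 1.17.1, numpy 2.4.6 and Python 3.11.15.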

Additional observations from a re-analysis of the deposited data

How the results depend on the processing

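No paired analysis was possible because each genotype has 1 library. For the same reason no library could be left out. The 10 alternatives tried were no or a stricter filter on cells, doublets kept, a stricter gate, Leiden clusters in place of the gate, TMM scaling, each cell weighed the same, cells thinned to 2000 UMIs, a minimum of 30 UMIs, and the transcript-length trend removed. Of 135 single-gene values under these, 114 stayed within their counting interval, 19 moved and 2 turned direction: Kif19a in oligodendrocyte-like cells (0.23 with each cell weighed the same) and Kif26a in neuroblast-like cells (0.13 thinned). Counts of kinesins past 1.5-fold moved as follows, and the cause was not tested. The 5 in astrocyte-like cells became 8 with 30 UMIs and 2 without the length trend. The 4 in oligodendrocyte-like cells became 2 thinned and 2 without the length trend. The 4 in neuroblast-like cells became 1 with Leiden clusters, 1 with TMM, 2 with each cell weighed the same, 1 thinned, 7 with 30 UMIs and 0 without the length trend. The 2 in microglia-like cells became 1 with no filter, the stricter filter, Leiden clusters, TMM, thinning or the length trend removed, and 4 with 30 UMIs. Under the remaining alternatives these counts were 4 to 7 in astrocyte-like cells, above 5 in 6 of 8, 3 to 5 in oligodendrocyte-like, 4 to 6 in neuroblast-like and 2 to 3 in microglia-like cells. Median log2 ratios without the length trend were -0.0745 in astrocyte-like, -0.0345 in oligodendrocyte-like and -0.0905 in neuroblast-like cells. The microglia-like median turned to 0.00636 with Leiden clusters, 0.0871 with each cell weighed the same and 0.13 without the length trend. Summed mitotic kinesins in cycling cells were at -0.36 with a stricter cycling gate, -0.10 with TMM and -0.15 thinned. TMM moved the median of all genes from -0.09 to 0.04 in astrocyte-like and to 0.03 in neuroblast-like cells. Few UMIs limit the levels of NK cell-like, pericyte-like, ependymal-like and dendritic-like cells, where 3 UMIs make 8.48 to 24.7 CPM in KO and 10.1 to 26.2 CPM in WT.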
